A study of Mus musculus with 10 samples.

Results

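The 10 genes described here mark the monocyte lineage: *Ly6c2*, *Ccr2*, *F13a1*, *Ly86*, *Ms4a6c*, *Cx3cr1*, *Fn1*, *Lgals3*, *Cd68*, and *Adgre1*. They were chosen by name, with earlier results of these data known, out of 51717 genes with a matched transcript. All 10 were among the 12381 genes with enough reads to be tested. Their levels were read in granulocyte-monocyte progenitors (GMPs), the marrow cells that give rise to neutrophils and monocytes. The comparison asks what loss of MPC2, a subunit of the carrier that takes pyruvate into mitochondria, does to the expression of these genes within 2 wk of deletion.

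The cells were CD45.2+ GMPs sorted from mixed bone marrow chimeras, in which donor marrow was transplanted together with CD45.1 marrow into irradiated CD45.1 hosts. The WT donors were ROSA26 CreER+/- and the recent *Mpc2* KO donors were Mpc2fl/fl; ROSA26 CreER+/-. The donors are given as male C57Bl6/N, without an age, and both groups were fed tamoxifen, so that CreER and tamoxifen are shared by the controls. Each group had 5 samples. GMPs of 1 mouse made up each WT sample, while those of 2 mice were combined for each recent KO sample, which averages out part of the spread between animals in 1 group only. ROSA26 drives CreER in all cells rather than in GMPs alone, so *Mpc2* was also deleted upstream and downstream of the sorted stage.

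Monocytes arise from GMPs under the transcription factors PU.1 (encoded by *Spi1*), IRF8, and KLF4, while GFI1 and some C/EBP factors favor granulocytes. Classical monocytes carry Ly6C on their surface and need the chemokine receptor CCR2 to leave the marrow. They later lower Ly6C and raise CX3CR1, the fractalkine receptor, and in tissues they can turn into macrophages that carry F4/80, the product of *Adgre1*. A sorted GMP population holds cells biased to the monocyte or the neutrophil fate, and in bulk RNA fewer cells of one bias and less RNA per cell cannot be told apart.

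Total estimated reads ranged from 14033776 to 19745405 per sample. *Mpc2* had 60.9 to 117 CPM (counts scaled to library size, normalized by edgeR's TMM method) in WT samples and 17.1 to 43.9 CPM in recent KO samples, and its log2 fold change, always given as recent KO over WT, was -1.46 ± 0.24 (SE; edgeR, adjusted p = 0.0156). At about the same fold change, that call was lost with limma (adjusted p = 0.130 on log2(TPM + 1) and 0.138 on log2(TPM + 0.1)) and narrowly without recent KO replicate 1 (edgeR, adjusted p = 0.05002). TPM values, which Salmon also corrects for transcript length, allow levels of different genes to be compared. By TPM the primary granule gene *Mpo* averaged 22300 in WT samples, *Fcgr3*, part of the CD16/32 pair used to gate GMPs, 294, *Cd34* 81, and *Kit* 6.6, while *Ly6g*, a surface marker of mature neutrophils, averaged 0.486.

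*Ly6c2* was by far the most abundant of the 10 genes, with a mean of 3830 TPM over the 10 samples and rank 33 among all genes. *Ms4a6c* followed at 151 TPM, *F13a1* at 66.0 TPM, *Cd68* at 64.8 TPM, *Ly86* at 44.2 TPM, and *Ccr2* at 23.9 TPM. The lowest were *Lgals3* at 9.49 TPM, *Cx3cr1* at 1.10 TPM, *Adgre1* at 0.751 TPM, and *Fn1* at 0.573 TPM. Over all samples, the range of *Ly6c2* did not overlap that of *Ms4a6c*, nor did *Ccr2* overlap *Lgals3*, or *Lgals3* overlap *Cx3cr1*. The other neighbors in this order overlapped, and *F13a1* exceeded *Cd68* in only 4 of 10 samples.

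The promoters of *Ly6c2*, *F13a1*, and *Ly86* are shown because these genes had the largest ratios of CPM between the highest and the lowest recent KO sample. They are RefSeq sequences on GRCm38.p6 that run from 250 bases before the annotated start to 50 bases after it, on the strand of the gene. Capitals mark GAGGAAG, a form of the site bound by PU.1, searched on both strands. *Ly6c2* is on the minus strand at chr15:75111922-75112221, *F13a1* on the minus strand at chr13:37050195-37050494, and *Ly86* on the plus strand at chr13:37345095-37345394.
Ly6c2: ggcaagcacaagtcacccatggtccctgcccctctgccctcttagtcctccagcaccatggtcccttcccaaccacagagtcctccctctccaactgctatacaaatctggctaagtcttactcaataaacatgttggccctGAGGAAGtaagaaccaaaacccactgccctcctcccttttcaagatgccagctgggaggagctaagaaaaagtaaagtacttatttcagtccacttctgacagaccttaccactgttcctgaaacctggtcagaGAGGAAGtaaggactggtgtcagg
F13a1: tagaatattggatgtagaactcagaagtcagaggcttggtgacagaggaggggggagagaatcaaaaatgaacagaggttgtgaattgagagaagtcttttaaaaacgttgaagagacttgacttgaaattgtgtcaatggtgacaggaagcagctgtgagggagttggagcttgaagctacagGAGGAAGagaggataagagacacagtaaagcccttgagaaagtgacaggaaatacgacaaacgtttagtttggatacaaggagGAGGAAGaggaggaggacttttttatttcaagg
Ly86: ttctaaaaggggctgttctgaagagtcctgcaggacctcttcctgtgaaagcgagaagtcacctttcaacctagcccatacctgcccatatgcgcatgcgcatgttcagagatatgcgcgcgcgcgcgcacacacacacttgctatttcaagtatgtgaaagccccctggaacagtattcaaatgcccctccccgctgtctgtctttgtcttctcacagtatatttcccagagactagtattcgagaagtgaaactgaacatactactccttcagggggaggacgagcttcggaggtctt

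GAGGAAG lay at -108 and 27 relative to the start of *Ly6c2* and at -66 and 18 relative to that of *F13a1*, each time on the strand of the gene, and was not found in this window of *Ly86*. Of the 10 genes, 8 had an entry in the promoter table, with 10 promoters between them, and 2 of the 8 genes held GAGGAAG. Counted by promoter, 4 of the 10 held it, all of them at *Ly6c2* or *F13a1*, against 13.6% of 32851 promoters in the table. A second annotated *F13a1* start also had the site, at 15, and a second *Ly6c2* entry overlapped the one shown. Of the other motifs, C/EBP (TTGCNNAA, in 10.8% of all promoters), AP-1 (TGAGTCA, 5.20%), and an ETS-IRF composite site (2.71%) were found at *Cd68* alone. KLF (CCCCACCC, 9.99%) was found at *Cd68* and at the second start of *F13a1*. No motif searched was found in the windows of *Ly86*, *Ms4a6c*, *Ccr2*, *Cx3cr1*, or *Lgals3*. These matches are letters in a window, and binding was not measured.

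Between recent KO and WT samples, 8 of the 10 genes lay lower on average and 2 lay higher, with a median log2 fold change of -0.29 beside -0.002 over all genes tested. None passed edgeR's threshold (adjusted p under 0.05 over all genes tested), where 0.331% of all genes tested did. At an unadjusted p under 0.05, 5 genes were lower and 0 were higher, namely *Ccr2*, *Ly86*, *Ms4a6c*, *Cx3cr1*, and *Cd68*, beside 10.2% of all genes tested in either direction. The 10 genes and the lists below were chosen with earlier results of these data known, so such counts are no test of a set. The samples of the groups overlapped for all 10 genes, whereas they did not overlap for 2.43% of all genes tested. DESeq2 called 1 of the 10, *Cx3cr1*, where it called 77 genes higher and 79 lower of 14360 tested. Limma on log2(TPM + 1) fitted 8 of the 10 and called 0. Of these 8, 0 had an unadjusted p under 0.05, beside 9.39% of all genes in that fit. With library size scaling, 2 of the 10 were lower at an unadjusted p under 0.05, beside 11.55% of all genes in either direction. Without recent KO replicate 3 the 10 genes split into 7 lower and 3 higher, with 4 lower at that level, beside 7.77% of all genes.

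**Figure D1:**
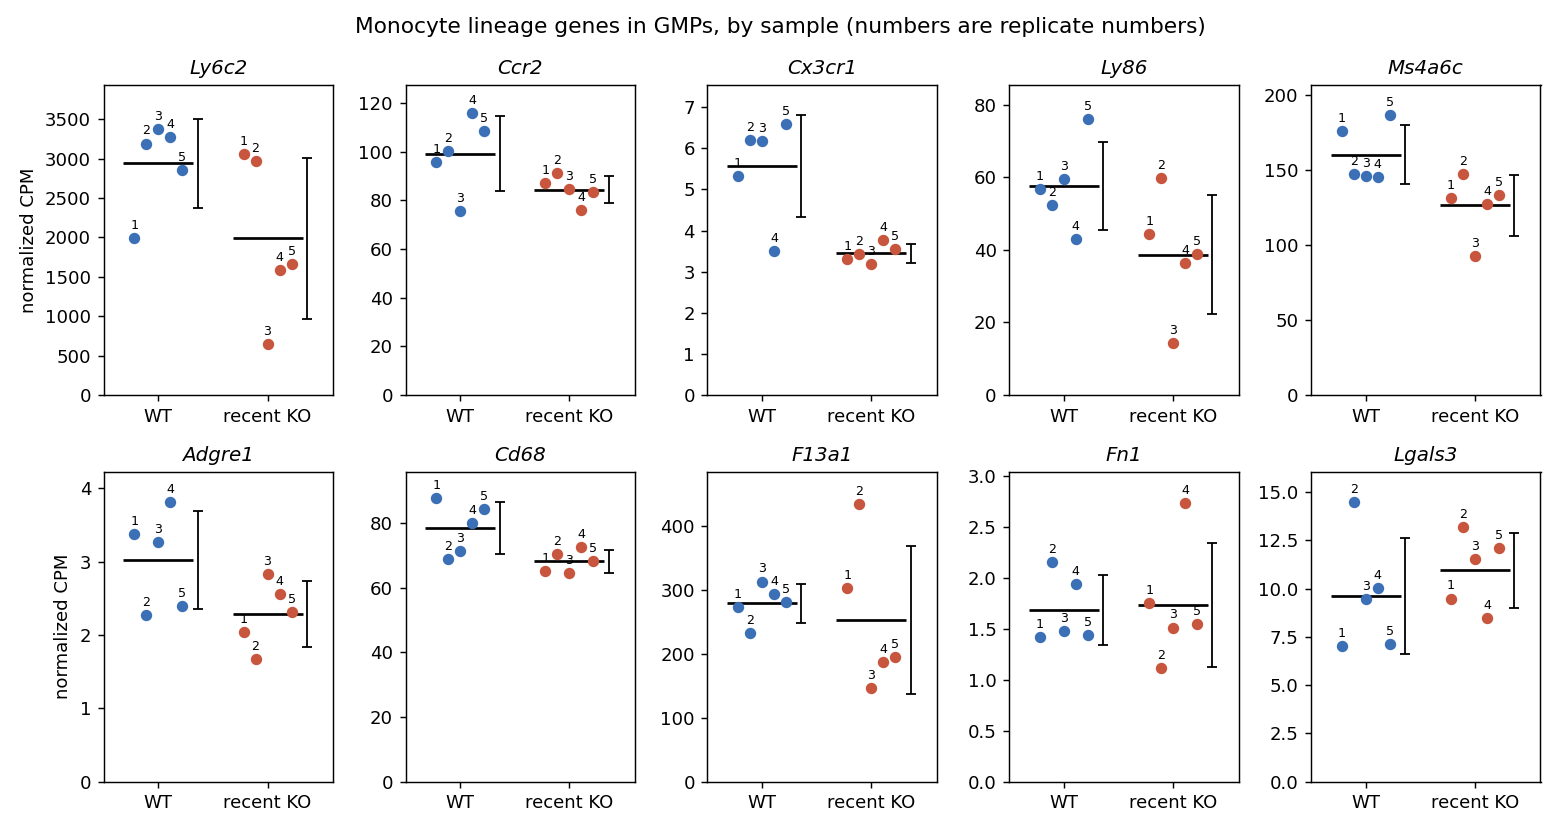
Normalized CPM (linear axes from 0) of the 10 monocyte lineage genes in 5 WT and 5 recent KO samples; points are samples with their replicate numbers, thick lines are group means and bars beside them are SDs. For *Ly6c2*, *F13a1*, *Ly86*, and *Ms4a6c*, recent KO replicate 3 is the lowest of all samples, and for *Cx3cr1* the recent KO samples sit between 3.18 and 3.78 CPM, with 1 of 5 WT samples among them.

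*Ly6c2* encodes the Ly6C antigen of classical monocytes, a small protein anchored in the membrane by a lipid, and lies at chr15:75108158-75111970. Its levels were 1997, 3192, 3375, 3278, and 2857 CPM in WT replicates 1 to 5, and 3055, 2968, 652, 1588, and 1668 CPM in recent KO replicates 1 to 5. Recent KO replicates 1 and 2 were thus level with WT samples, replicates 4 and 5 lay below every WT sample, and replicate 3 lay far below. The means were 2940 ± 562 CPM in WT samples and 1986 ± 1018 CPM in recent KO samples (SD, n = 5 each), and the log2 fold change was -0.57 ± 0.31 (SE; edgeR, adjusted p = 0.573), or -0.34 without recent KO replicate 3. *Ly6c1*, whose transcript was 97.6% identical over 822 bases, was assigned only 1.66 to 7.46 CPM, and how Salmon divided shared reads between the pair is uncertain for the low copy.

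*Ly86* encodes MD-1, a secreted protein that pairs with the receptor RP105 on B cells and myeloid cells. Its levels were 56.8, 52.4, 59.5, 43.1, and 76.0 CPM in WT samples and 44.2, 59.7, 14.3, 36.4, and 38.9 CPM in recent KO samples, in the order of the replicate numbers. The groups overlapped, with recent KO replicate 3 again the lowest of all. The log2 fold change was -0.58 ± 0.27 (SE; edgeR, adjusted p = 0.482), or -0.36 without recent KO replicate 3. *Cd180*, which encodes RP105 and was added after its values were seen, was low, at 1.13 to 2.15 CPM in WT samples and 0.633 to 1.47 CPM in recent KO samples, where 3 counts correspond to 0.147 to 0.233 CPM.

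*F13a1* encodes the catalytic subunit of coagulation factor XIII, made by monocytes and macrophages. The gene lies at chr13:36867178-37050244, and the span of *Ly86*, chr13:37345208-37419036, begins 294963 bases beyond it with no protein-coding gene between them. WT samples held 273, 232, 313, 294, and 281 CPM and recent KO samples 302, 434, 147, 187, and 194 CPM. Recent KO samples therefore lay on either side of the WT range, 3 below every WT sample and 1 above. The log2 fold change was -0.14 ± 0.23 (SE; edgeR, adjusted p = 0.885), and it was 0.003 without recent KO replicate 3 and -0.43 without recent KO replicate 2.

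*Ms4a6c* encodes a membrane protein of the MS4A family with 4 predicted passes, and lies at chr19:11469366-11482192. Its levels were 176, 147, 146, 145, and 187 CPM in WT samples and 131, 147, 92.6, 127, and 133 CPM in recent KO samples. Recent KO replicate 2 lay inside the WT range and the other 4 recent KO samples lay below every WT sample. The log2 fold change was -0.34 ± 0.11 (SE; edgeR, adjusted p = 0.291). A transcript annotated as a retained intron took 30.6% of the gene's reads, and a relative of the gene, *Ms4a6b*, 86.3% identical over 1160 bases, was measured at 43.6 to 63.0 CPM.

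The chemokine receptors were both lower on average. *Ccr2*, at chr9:124101950-124113557, had 95.8, 100.1, 75.6, 116, and 108 CPM in WT samples and 87.1, 91.1, 84.7, 76.0, and 83.4 CPM in recent KO samples. Recent KO samples fell within the WT range, at its lower side, and the log2 fold change was -0.23 ± 0.10 (SE; edgeR, adjusted p = 0.429). *Cx3cr1*, at chr9:119901616-120069879, had 5.33, 6.21, 6.17, 3.50, and 6.59 CPM in WT samples and 3.31, 3.43, 3.18, 3.78, and 3.56 CPM in recent KO samples. WT replicate 4 lay among the recent KO samples and the other 4 WT samples lay above all of them. The log2 fold change was -0.69 ± 0.17 (SE; edgeR, adjusted p = 0.155), and -0.29 with limma on log2(TPM + 1), a scale that shrinks low genes. Its call depended on the test and on 1 library: the adjusted p was 0.0385 with DESeq2 and 0.0342 with edgeR without WT replicate 4. The annotated span of *Cx3cr1* contains other genes, among them *Wdr48* on the opposite strand and *Gorasp1* on the same strand.

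*Cd68* and *Adgre1*, which macrophages also express, were lower on average. *Cd68*, which encodes a glycoprotein of lysosomes and endosomes and lies at chr11:69664213-69666153, had 87.6, 68.9, 71.4, 79.8, and 84.3 CPM in WT samples and 65.0, 70.3, 64.4, 72.6, and 68.1 CPM in recent KO samples, for a log2 fold change of -0.20 ± 0.07 (SE; edgeR, adjusted p = 0.364). The groups overlapped, with the 3 highest values in WT samples. *Adgre1*, at chr17:57358691-57483527, had 2.27 to 3.81 CPM in WT samples and 1.68 to 2.83 CPM in recent KO samples, and its log2 fold change was -0.39 ± 0.21 (SE; edgeR, adjusted p = 0.569). Beside these, 12 of 13 tested genes on a list of marrow macrophage markers were higher in recent KO samples. Over all genes tested, 6135 were higher and 6246 lower. Some of the 12 were close to 0, such as *Cd163* and *Slc40a1*, with log2 fold changes of 0.025 and 0.074. Past the threshold, which 0.331% of all genes tested passed, 3 rose. They were *C1qa*, *C1qb*, and *C1qc*, which encode the chains of complement C1q. Leaving out 1 sample ended these calls in 7, 4, and 7 of 10 fits. The summed level of that list of 16 genes was 14.5 to 33.6 TPM in WT and 38.8 to 77.8 TPM in recent KO samples, while *Cd68* and *Adgre1* were lower on average. What part macrophage RNA had in the levels of *Cd68* and *Adgre1* was not tested.

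*Lgals3* and *Fn1* were the members with higher averages in recent KO samples. *Lgals3* encodes galectin-3, a lectin that binds galactosides, lies at chr14:47367751-47386160, and had 7.05 to 14.5 CPM in WT samples and 8.46 to 13.2 CPM in recent KO samples, with a log2 fold change of 0.19 ± 0.19 (SE; edgeR, adjusted p = 0.816). *Fn1*, for the matrix protein fibronectin, lies at chr1:71585520-71653200 and had 1.42 to 2.16 CPM in WT samples and 1.12 to 2.74 CPM in recent KO samples, with a log2 fold change of 0.04 ± 0.27 (SE; edgeR, adjusted p = 0.974). Of the *Fn1* reads, 98.7% were assigned to transcripts annotated as retained introns and 1.28% to coding transcripts, so the gene's value says little about fibronectin mRNA. The groups overlapped for both genes. The value of *Lgals3* depended on single samples, at 0.39 without WT replicate 2, where it was higher at an unadjusted p under 0.05, 0.093 and 0.10 without WT replicates 1 and 5, and 0.12 without recent KO replicate 2.

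**Figure D2:**
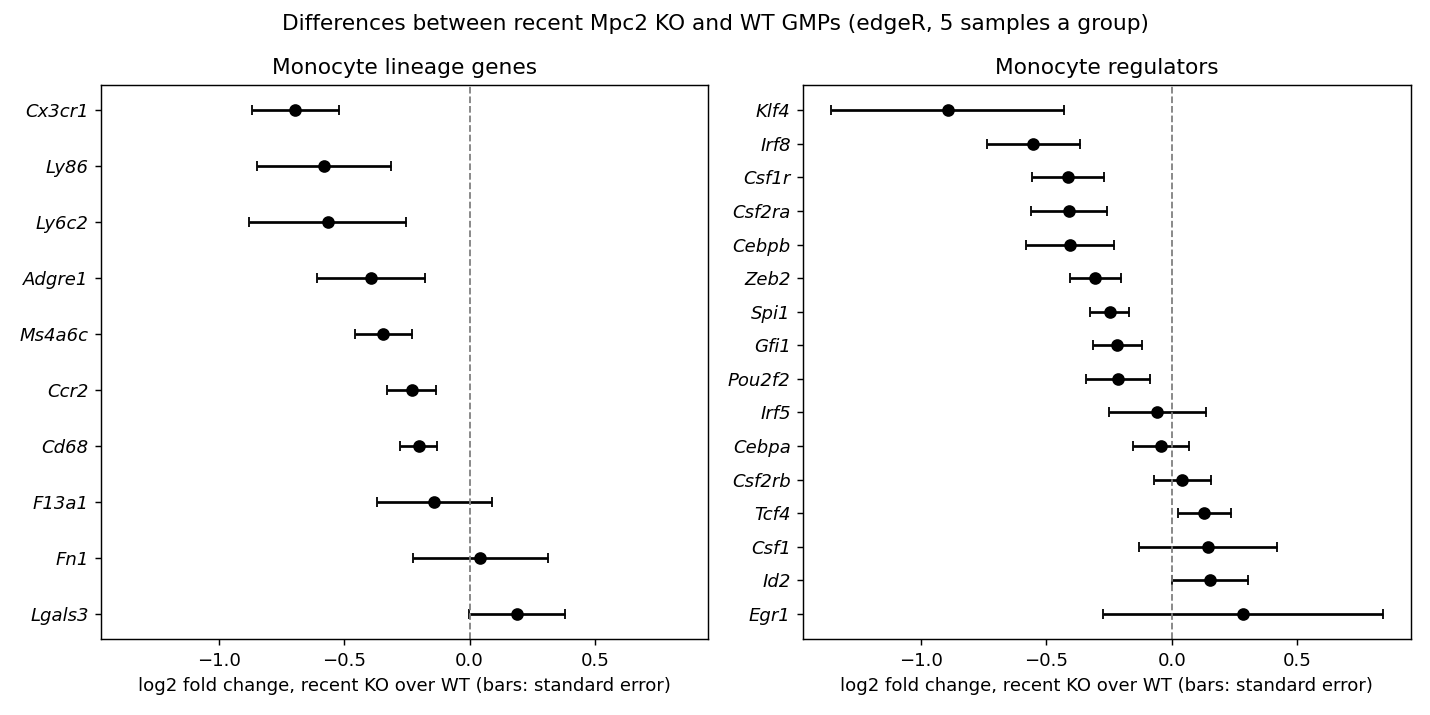
Log2 fold changes of recent KO over WT (points, edgeR) with standard errors (bars) for the 10 monocyte lineage genes and for the 16 tested monocyte regulators, ordered by size; the dashed line marks no difference. Points lie left of the line for 8 of 10 lineage genes and 11 of 16 regulators, and none passed the threshold.

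Of 21 regulators of monocyte development on a list of transcription factors, growth factors, and their receptors, 16 were tested. None passed the threshold in the filtered test, and 11 were lower and 5 higher, with a median log2 fold change of -0.21. At an unadjusted p under 0.05, 7 were lower and 0 higher, beside 10.2% of all genes tested in either direction. These 7 were *Irf8*, *Spi1*, *Csf1r*, *Zeb2*, *Csf2ra*, *Cebpb*, and *Gfi1*, the last of which encodes a factor said above to favor granulocytes. *Irf8*, which directs progenitors to the monocyte fate, had 158, 120.0, 148, 116, and 140.3 CPM in WT samples and 105, 137, 53.6, 82.4, and 89.1 CPM in recent KO samples. All recent KO samples but replicate 2 lay below every WT sample, and the log2 fold change was -0.55 ± 0.18 (SE; edgeR, adjusted p = 0.302). With no filter on low counts *Irf8* passed the threshold (edgeR, adjusted p = 0.0157), at nearly the same fold change. *Spi1* averaged 369 ± 36.6 CPM in WT samples and 311 ± 26.3 CPM in recent KO samples (SD, n = 5 each; log2 fold change -0.25 ± 0.08, SE; edgeR, adjusted p = 0.270). The log2 fold changes of *Csf1r* and *Csf2ra*, the receptors for M-CSF and (as its alpha chain) GM-CSF, were -0.41 ± 0.14 and -0.41 ± 0.15 (SE). *Zeb2*, a repressor needed for monocyte development, was at -0.30 ± 0.10 (SE), *Cebpb* at -0.41 ± 0.17 (SE; -0.20 without WT replicate 4), and *Gfi1* at -0.22 ± 0.10 (SE). *Klf4* was at only 0.419 to 1.72 CPM in WT samples and 0.281 to 0.839 CPM in recent KO samples. Its log2 fold change was the lowest of the 16, at -0.893 ± 0.465 (SE; edgeR, adjusted p = 0.540), from a mean of 14.1 counts. *Cebpa*, the factor that GMPs need to form, was close to 0 at -0.04 ± 0.11 (SE) and turned positive with library size scaling.

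Of 44 further monocyte genes on a list, 36 were tested. *Psap* and *Pld4* fell and 0 rose past the threshold, where 0.331% of all genes tested passed. Of the 36, 15 were higher and 21 lower, and the median log2 fold change was -0.05. At an unadjusted p under 0.05, 6 were higher and 6 lower, beside 10.2% of all genes tested. *Psap*, which encodes the precursor of the lysosomal saposins, had 79.9 to 86.4 CPM in WT samples and 57.4 to 71.1 CPM in recent KO samples (log2 fold change -0.34 ± 0.07, SE; edgeR, adjusted p = 0.0468). *Pld4*, which encodes an endolysosomal nuclease, had 25.1 to 38.3 CPM in WT samples and 16.8 to 24.5 CPM in recent KO samples (log2 fold change -0.69 ± 0.13, SE; edgeR, adjusted p = 0.0468). For both genes the groups did not overlap, nor did they for *S100a6*, which encodes a calcium-binding protein and was higher in recent KO samples, at 11.6 to 17.8 CPM in WT samples against 18.9 to 36.5 CPM (log2 fold change 0.77 ± 0.18, SE; edgeR, adjusted p = 0.125); it was named after its values were seen. These calls were near the threshold: that of *Psap* was lost in 10 of 10 fits that left out 1 sample and that of *Pld4* in 8 of 10, and both were lost with library size scaling and with limma on TPM.

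The spread between recent KO samples was the main feature of *Ly6c2*, *Ly86*, and *F13a1*. Between the highest and the lowest recent KO sample, CPM differed by 4.68 times for *Ly6c2*, 4.17 times for *Ly86*, 2.96 times for *F13a1*, and 2.56 times for *Irf8*. Among WT samples the same ratios were 1.69, 1.77, 1.35, and 1.36. *Cd68*, *Ccr2*, and *Cx3cr1*, in contrast, differed by 1.13, 1.20, and 1.19 times between recent KO samples and by 1.27, 1.53, and 1.88 times between WT samples. Of the secondary granule and neutrophil genes, *Ngp* was at 155 and 7.62 CPM in recent KO replicates 2 and 3, and *Camp* at 43.6 and 1.86 CPM. WT samples held 10.7 to 37.7 CPM of *Ngp* and 1.79 to 14.2 CPM of *Camp*. On the same list, the difference between these replicates was smaller for *Lcn2*, at 190.5 and 94.6 CPM, and for *Cebpe*, at 27.8 and 24.5 CPM. *Csf3r* went the other way, at 56.5 and 67.9 CPM, and spread less, at 48.9 to 68.3 CPM in recent KO samples. Whether the spread differs between the groups was not tested.

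The recent KO samples low in *Ly6c2* were also those with the most erythroid RNA. The summed level of 10 erythroid genes was 51.2 to 127 TPM in WT samples, 77.4 and 96.8 TPM in recent KO replicates 1 and 2, and 550, 383, and 333 TPM in recent KO replicates 3, 4, and 5. *Hba-a1*, for the alpha chain of hemoglobin, was at 59.2, 38.8, and 33.7 CPM in the last 3 and at 1.13 to 11.5 CPM in all other samples, while *Klf1*, an erythroid transcription factor, was at 0 in WT replicate 3 and in recent KO replicates 1 and 3. All 8 tested erythroid genes were higher in recent KO samples and 0 passed the threshold, with 6 at an unadjusted p under 0.05, beside 10.2% of all genes tested. WT samples did not follow this order: WT replicate 1 had the lowest *Ly6c2* of its group (1997 CPM) and the lowest erythroid sum (51.2 TPM). WT replicates 2 and 3 had 3192 and 3375 CPM of *Ly6c2* and erythroid sums of 127 and 115 TPM. The summed level of 12 primary granule genes, the main product of GMPs, was 44930 TPM in recent KO replicate 3 and 58320 to 94860 TPM in the other samples. What part the make-up of the sorted cells had in the spread of the lineage genes was not tested.

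Agreement between the 10 genes was measured with log2 CPM as deviations from the mean of each group, so that a difference between groups adds nothing. Of the 45 pairs, 22 had a positive Pearson's r and the median r was -0.03, beside a median of 0.000 over all 76638390 pairs of tested genes. At r of at least 0.8 there were 3 member pairs (6.67%), beside 0.851% of all pairs. No pair passed the Benjamini-Hochberg threshold over the 45 pairs by r or by Spearman's rho, and 3 had an unadjusted permutation p under 0.05 by r. The share of positive pairs was thus near that of all genes, and the 7 highest correlations were the 6 pairs among *Ly6c2*, *F13a1*, *Ly86*, and *Ms4a6c* and the pair of *Ms4a6c* and *Cd68*.

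**Figure D3:**
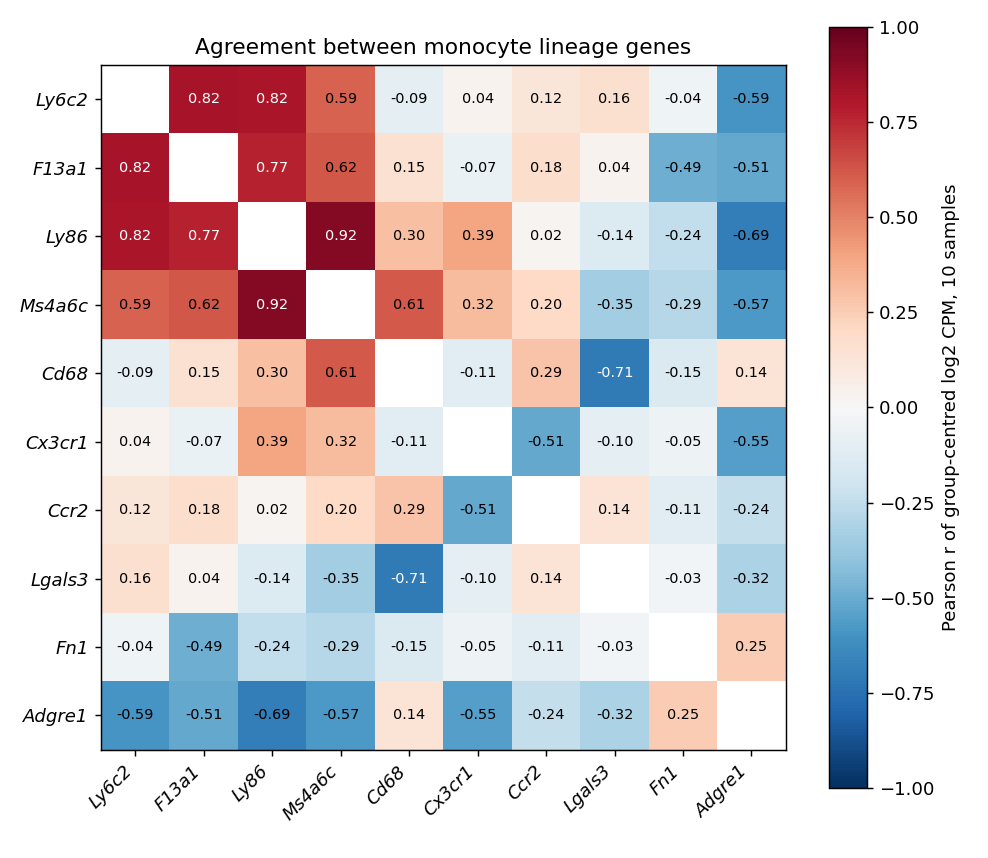
Pearson's r between the 10 genes over 10 samples, from log2 CPM centred on each group's mean; red is positive and blue negative, with the value in each cell. The 4 genes at the upper left had r of 0.59 to 0.92 with each other, and *Adgre1* was negative with each of them.

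*Ly86* and *Ms4a6c* were most alike, with r = 0.917 over 10 samples (exact permutation within groups, two-sided, p = 0.00292, adjusted p = 0.131) and rho = 0.818 (exact permutation p = 0.00875, adjusted p = 0.197). Without recent KO replicates 2 and 3, the 2 samples farthest from the median of *Ly86*, r was 0.724. For this pair r was 0.749 among WT samples and 0.992 among recent KO samples. For *Ly6c2* and *F13a1*, in contrast, it was 0.142 among WT samples and 0.884 among recent KO samples. *Ly6c2* and *F13a1* had r = 0.821 (exact permutation p = 0.0516, adjusted p = 0.314) and rho = 0.891 (exact permutation p = 0.00757, adjusted p = 0.197), and r was 0.742 without recent KO replicates 1 and 3.

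For the other pairs among the 4 genes, r fell further without 2 recent KO samples. Among WT samples alone, r was -0.219 for *Ly6c2* and *Ly86* and 0.087 for *F13a1* and *Ly86*. It was -0.693 for *Ly6c2* and *Ms4a6c* and -0.015 for *F13a1* and *Ms4a6c*. Among recent KO samples alone, the values in this order were 0.955, 0.840, 0.917, and 0.781. *Ly6c2* and *Ly86* had r = 0.817 (exact permutation p = 0.0417, adjusted p = 0.314; rho = 0.539, p = 0.141, adjusted p = 0.611) and 0.403 without recent KO replicates 1 and 3. *F13a1* and *Ly86*, the neighbors on chr13, had r = 0.766 (exact permutation p = 0.0601, adjusted p = 0.314; rho = 0.600, p = 0.0922, adjusted p = 0.579) and 0.310 without recent KO replicates 2 and 3. *Ly6c2* and *Ms4a6c* had r = 0.590 (exact permutation p = 0.182; rho = 0.176, adjusted p = 0.928) and -0.124 without recent KO replicates 1 and 3. For *F13a1* and *Ms4a6c*, r was 0.623 (exact permutation, adjusted p = 0.446; rho = 0.382, adjusted p = 0.717) and 0.020 without recent KO replicates 2 and 3. Outside these 4 genes, *Ms4a6c* and *Cd68* had r = 0.610 (exact permutation p = 0.0512, adjusted p = 0.314; rho = 0.636, p = 0.0726, adjusted p = 0.546) and 0.698 without recent KO replicates 2 and 3. On the negative side, *Ly86* and *Adgre1* had r = -0.689 (exact permutation p = 0.0215, adjusted p = 0.314; rho = -0.733, p = 0.0206, adjusted p = 0.308) and -0.614 without the same 2 samples as for *F13a1*. *Lgals3* and *Cd68* had r = -0.710 (exact permutation p = 0.0545, adjusted p = 0.314; rho = -0.624, p = 0.109, adjusted p = 0.579) and -0.377 without WT replicates 1 and 2.

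**Figure D4:**
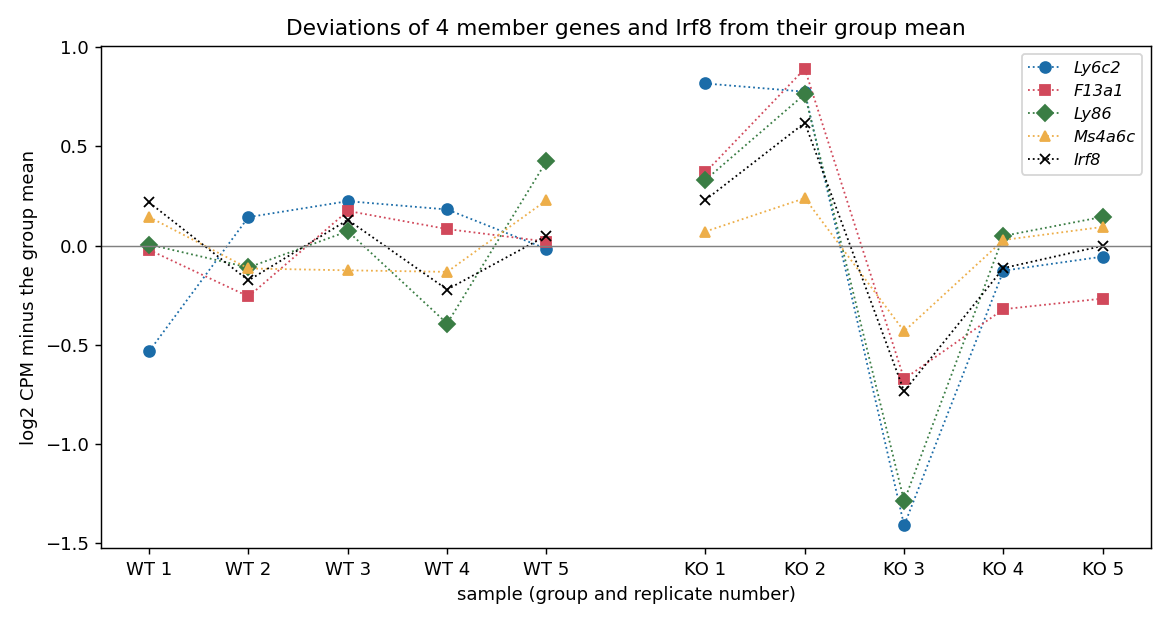
Deviation of log2 CPM from the group mean for *Ly6c2*, *F13a1*, *Ly86*, *Ms4a6c*, and the regulator *Irf8* in each sample; dotted lines only join the points of a gene within a group and imply no order. All 5 genes are lowest in recent KO replicate 3 and above their group mean in recent KO replicates 1 and 2.

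*Irf8* was compared with the 10 genes along with the other 15 tested regulators, a choice made after the correlations above were seen. None of the 160 pairs passed the Benjamini-Hochberg threshold. *Irf8* and *Ly86* had r = 0.925 (exact permutation p = 0.00264, adjusted p = 0.222; rho = 0.806, p = 0.00868, adjusted p = 0.278), with 0.658 without recent KO replicates 2 and 3. *Irf8* had r = 0.883 with *F13a1* and 0.847 with *Ms4a6c* (exact permutation, adjusted p = 0.225 each; rho = 0.733 and 0.758, adjusted p = 0.508 and 0.444), with 0.610 and 0.514 without the same samples. With *Ly6c2* it had r = 0.767 (exact permutation, adjusted p = 0.462; rho = 0.539, adjusted p = 0.625), and 0.378 without recent KO replicates 1 and 3. For the remaining 6 members r was 0.311 (*Cd68*), 0.233 (*Cx3cr1*), -0.027 (*Ccr2*), -0.123 (*Lgals3*), -0.438 (*Fn1*), and -0.562 (*Adgre1*). *Csf2ra* and *Ly6c2* had r = 0.864 (exact permutation p = 0.00278, adjusted p = 0.222; rho = 0.891, p = 0.00229, adjusted p = 0.278), and 0.877 without recent KO replicates 1 and 3. *Csf2ra* and *F13a1* had r = 0.836 (exact permutation, adjusted p = 0.225; rho = 0.770, adjusted p = 0.444), and 0.530 without recent KO replicates 2 and 3. *Csf1r* and *Ly6c2* had r = 0.834 (exact permutation, adjusted p = 0.4265; rho = 0.552, adjusted p = 0.516), and 0.853 without recent KO replicates 1 and 3. *Irf5* had r = 0.801 with *Ms4a6c* and 0.766 with *Ly86* (exact permutation, adjusted p = 0.225 each). Without recent KO replicates 2 and 3 these *Irf5* values were 0.814 and 0.885, so *Irf8* was not alone among the regulators.

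The mean of the 10 standardised deviations summarised the members in each sample. It lay between -0.227 and 0.207 in WT samples, and was 0.172, 0.480, -0.830, 0.133, and 0.046 in recent KO replicates 1 to 5. Among 9737 other genes with a mean of at least 50 counts, those most like this mean were *Cep250* (r = 0.958), *Ifi209* (0.947), *Mefv* (0.946), *Tifa* (0.944), and *Papss2* (0.918), and those most opposite to it were *Paip2b* (-0.928), *Noc3l* (-0.923), *Agfg1* (-0.922), *Slc45a4* (-0.906), and *Pign* (-0.891). *Cep250* encodes a centrosome protein, *Ifi209* an interferon-induced protein, *Mefv* the inflammasome protein pyrin, and *Tifa* an adaptor of TRAF signaling. These 10 were selected for the correlation over 10 samples, which therefore has no test. Recent KO replicate 3, the lowest sample by this mean, was also the lowest for each of the 5 most alike, for example at 3.32 CPM for *Mefv* beside 8.34 to 15.5 CPM in the others. That comes with their selection and is no separate evidence.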

How the data were processed

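RNA-seq of CD45.2+ GMPs was analysed for 5 WT and 5 recent *Mpc2* KO samples, grouped by their labels. SMARTseq V4 cDNA libraries had been sequenced as paired ends on a NovaSeq instrument. The submitters' processing notes name Salmon 1.5.1 and DESeq2 2.11.40.6, and Gencode M27 on GRCm39 was the authors' annotation. The authors deposited Salmon's estimated counts per transcript, not normalized, and TPM, scaled to transcript length and to 1 total per sample. A deposited table of the authors' own comparison (mean count, fold change, and p-values per gene) was not used.

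Transcripts were matched by Ensembl identifier to GENCODE M21 (GRCm38), the source of every gene position. Of 140789 transcripts, 137161 matched and were summed to 51717 genes; 3628 were left out. Counts were rounded, normalized by TMM, filtered by filterByExpr (minimum count of 10), and tested with edgeR 4.0.16 by its quasi-likelihood test (R 4.3.3), with Benjamini-Hochberg adjustment over 12381 genes at 0.05. SEs are the absolute log2 fold change divided by the square root of F. The step was tested on simulated data. Reads amplified without molecular identifiers make any limit drawn from 3 counts cover counting error only. Replicates differed by more than sampling noise (chi-square per gene of 6.31 to 41.7), and WT samples are single mice while recent KO samples are pools of 2.

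Agreement used log2 CPM (prior count 2) centred on each group, with two-sided exact permutation over all 14400 orders within groups. The members and lists were chosen with earlier results of these data known. All members were named. Of the other lists, the text or the closing values draw on called genes, the 2 most abundant, the most raised and most lowered gene, all tested regulators, and 5 genes most and least like the members. The lists hold monocyte regulators, other monocyte genes, marrow macrophage, primary granule, secondary granule and neutrophil, GMP surface, dendritic, erythroid, lymphoid, and basophil, mast cell, and megakaryocyte genes. Promoters are RefSeq's on GRCm38.p6.

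Alternatives were RLE or library size scaling, no filter or a stricter one (50 reads on average), a replicate block, near-identical copies summed, DESeq2 1.42.0, limma 3.58.1 on log2(TPM + 1) and on log2(TPM + 0.1), restricted to mean TPM values from 1 upward, log2 CPM without centring (100000 permutations), and leaving out each sample. Python 3.11.15 was used for the other steps.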

Additional observations from a re-analysis of the deposited data

Results flagged for a closer look

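In 4 cases 1 sample stood apart from the other 4 of its group by Dixon's criterion, all in genes other than the 10 lineage genes. *Cebpb* was at 115.6 CPM in WT replicate 4 and at 56.6 to 73.0 CPM in the other WT samples. *Cd5l*, a macrophage gene, was at 1.86 CPM in WT replicate 5 and at 0.734 to 1.01 CPM in the others. *Xcr1*, a dendritic cell gene, was at 1.55 CPM in WT replicate 4 and at 0.594 to 0.832 CPM in the others. *Prss34*, a basophil protease, was at 5.46 CPM in recent KO replicate 2 and at 0.684 to 1.89 CPM in the others. Of 124 groups examined, chance alone would give about 6.2 such cases. The 20 groups of the lineage genes gave 0, although recent KO replicate 3 was the lowest for several of them.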

How the results depend on the processing

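The count of genes past the threshold over all genes, 41 (15 higher and 26 lower), was 206 with no filter on low counts, 156 with DESeq2, 25 with limma on log2(TPM + 1), and 24 with limma on log2(TPM + 0.1). Leaving out 1 sample gave 25 to 91 (26 without WT replicate 3, 91 without recent KO replicate 2, and 25 without recent KO replicate 3 or 4). With library size scaling 26 were higher and 20 lower, and with DESeq2 77 and 79. The replicate block gave 20 calls and called none of the lineage genes. Same-numbered samples had correlations of -0.230 to 0.031, and no WT sample was best matched by the recent KO sample of its number. The labels do not say that the numbers pair the samples, and these few correlations cannot exclude a shared batch. Under the block *Mpc2* had an adjusted p of 0.0577 (edgeR), and *Psap*, *Pld4*, *C1qa*, *C1qb*, and *C1qc* were not called. Of the 10 lineage genes, 1 passed with DESeq2 and 0 to 1 when 1 sample was left out (*Cx3cr1* both times, the latter without WT replicate 4), and 0 in every other setting tried; among the regulators *Irf8* passed with no filter on low counts. For agreement, 2 of 45 pairs passed without centring, 1 with library size scaling, and 0 to 1 when 1 sample was left out (1 without WT replicate 3). The cause of these changes was not tested.

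Signs turned for values close to 0 when 1 sample was left out: *F13a1* (-0.43 to 0.003), *Fn1* (-0.18 to 0.16), *Cebpa* (-0.10 to 0.015), *Irf5* (-0.19 to 0.037), *Csf2rb* (-0.031 to 0.16), *S100a8* (-0.32 to 0.15), and *Klrb1c* (-0.070 to 0.39). With library size scaling, log2(TPM + 1), and log2(TPM + 0.1), *Cebpa* was at 0.036, 0.041, and 0.047 and *Irf5* at 0.001, 0.093, and 0.128, and *S100a8* was at 0.010 with library size scaling. *Fn1* and *Adgre1*, with means of 28.9 and 45.2 counts, are limited by depth and could not be fitted at a mean count of at least 50 or a mean TPM of at least 1.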

Other observations

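All 12 primary granule genes, which are made in GMPs, were lower on average in recent KO samples, with -0.32 as their median log2 fold change. At an unadjusted p under 0.05, 7 of them were lower, beside 10.2% of all genes tested in either direction. Past edgeR's adjusted threshold there were 0. Their summed levels were 72330 to 94860 TPM in WT and 44930 to 77440 TPM in recent KO samples. Of 13 tested secondary granule and neutrophil genes, which appear later, 10 were higher and 3 lower, with a median log2 fold change of 0.83. Of these, 6 were higher and 1 lower at an unadjusted p under 0.05, beside the same 10.2%, and 0 passed the threshold. Their summed levels overlapped, at 614 to 1609 TPM in WT and 524 to 2716 TPM in recent KO samples. Of 8 GMP surface genes, 6 were higher and 2 lower, and *Fcgr3* (-0.65, edgeR, adjusted p = 0.107) and *Flt3* (0.98, edgeR, adjusted p = 0.0597) had the outermost log2 fold changes.

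Of the lists for other blood cells, 3 of 4 tested dendritic genes were higher, as were 1 of 3 lymphoid genes and 7 of 9 basophil, mast cell, and megakaryocyte genes, and none passed the threshold. The summed level of the last list was 187 to 326 TPM in WT and 285 to 449 TPM in recent KO samples, with 449, 435, and 394 TPM in recent KO replicates 3, 4, and 5.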
